A study of Mus musculus with 45 samples.

Results

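The comparison described here is that of Plag1 knockout (KO) with wildtype (WT) mice in scraped endometrium, the inner lining of the uterus. Its members are the 16 endometrium libraries, of 45 in the series, which came from 7 WT and 7 KO mice. Each mouse gave 1 library except KO mouse 13, which gave 3 that were summed. The other libraries of the series came from whole uterine horn (14) and myometrium (15) of the same 14 mice. All were sexually mature young females of the CD-1 strain. The KO allele has lacZ in place of the whole Plag1 open reading frame in every cell of the body, and WT mice carry the intact gene. Both groups were superovulated with 5 IU pregnant mare serum and, 2 days later, 5 IU human chorionic gonadotropin (hCG), and were killed on the following day. Whether the mice that gave these uteri had been mated is not stated. The lining was scraped from an opened horn, so a library can hold luminal and glandular epithelium, stroma, vessels, leukocytes and whatever muscle came with them. In such bulk samples fewer cells of a type and less RNA per cell cannot be told apart.

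PLAG1 is a zinc finger protein of fetal tissues that binds GC-rich sites in DNA and is known to activate the growth factor gene Igf2. Its relatives Plagl1 and Plagl2 bind similar sites. The endometrium responds to estrogen from the ovary with growth and secretion of its epithelium and to progesterone with differentiation of its stroma, and uterine glands secrete factors that embryos need. The allele is missing from ovary and pituitary as well as uterus, so effects within the tissue and effects through hormones cannot be told apart. The comparison asks whether the uterine lining of KO and WT females differed in its transcripts.

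Plag1 itself gave 0 counts in the 7 WT mice and 2 counts in all KO mice, with at most 1 in a mouse. All mice were thus at or under 3 counts per library, the floor used here for a gene to be called measured. Reads mark the 5′ ends of transcripts, and the exons before the open reading frame are not stated to be missing from the KO allele, so Plag1 does not check the genotype labels. Plagl2 was at 1.76 to 16.8 CPM (gene counts scaled to a common library size) in WT and 2.97 to 13.7 CPM in KO, with a log2 fold change (KO over WT throughout) of 0.34 ± 0.50 (SE). Igf2 was at 0 to 5.56 CPM in WT and 0 to 3.34 CPM in KO, and Plagl1 at 0 to 8.10 and 0 to 8.91 CPM. Igf2 did not exceed the floor in any KO mouse and Plagl1 in any WT mouse, so their levels were not resolved at this depth.

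Libraries held between 256298 and 1014921 gene counts, and 3 counts correspond to 2.96 to 11.7 CPM per library before TMM scaling. Gene counts averaged 598223 ± 232332 (SD, n = 7) in WT and 703524 ± 176062 (SD, n = 7) in KO, a difference that did not pass the exact two-sided permutation test over all 3432 splits of the mice (p = 0.358, adjusted p = 0.537 over 3 measures). The position code in the labels has rows A to C, with 5 WT and 3 KO mice, and rows D to F, with 2 WT and 4 KO mice. KO minus WT was 298238 counts in the former (exact p = 0.107) and -188834 in the latter (exact permutation p = 0.267, from only 15 splits). Differences in spike-in shares and genes detected did not pass either (adjusted p = 0.537 and 0.771, exact permutation tests). The epithelial genes Krt18 and Krt7, the stromal gene Dcn, and the vessel gene Pecam1 were measured in every mouse. Their presence does not check the tissue label, because whole horn holds these cell types too and no level was set against the other preparations. Mice WT 3, KO 13 and WT 8 stood apart by markers of other tissue. WT 3 and KO 13 had summed smooth muscle markers of 22850 and 24797 CPM, against 791 to 6646 CPM in the other WT and 577 to 2042 CPM in the other KO mice. WT 8 had summed oviduct and cilia markers of 6163 CPM, against 91.7 to 219 CPM in the other WT and 110 to 661 CPM in KO mice.

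**Figure D1:**
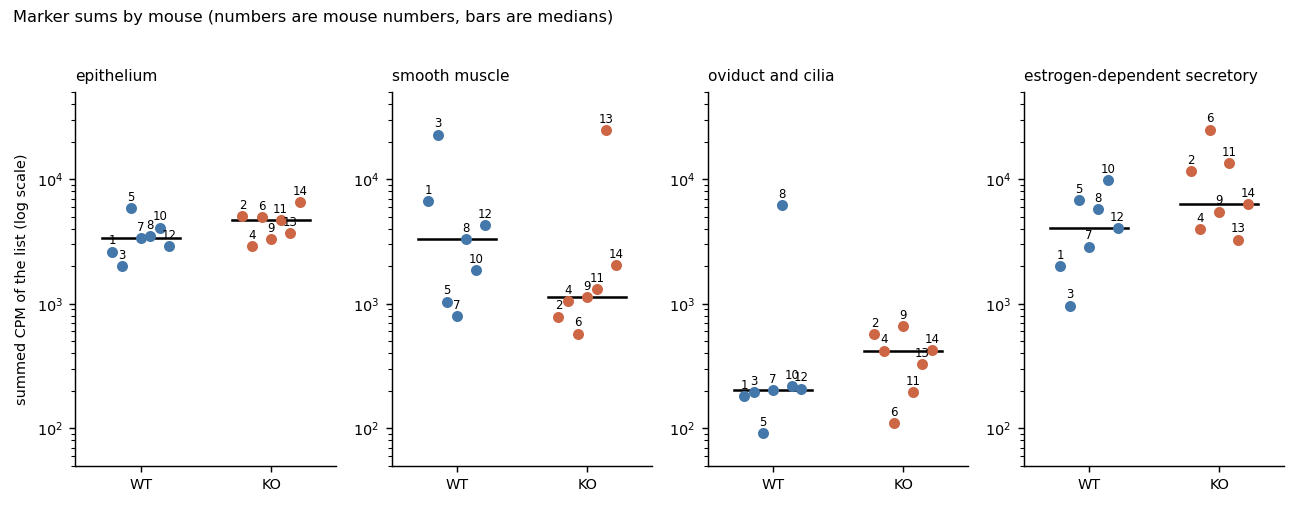
Summed CPM of 4 marker lists in each mouse on a log axis, with a bar at the group median and the mouse number at each point (WT left, KO right). WT 3 and KO 13 lie highest for smooth muscle at 22850 and 24797 CPM, WT 8 lies alone for oviduct and cilia at 6163 CPM, and the groups overlap in all 4 panels.

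No gene differed between KO and WT endometrium at an adjusted p under 0.05. Of 13004 genes tested by the quasi-likelihood F test of edgeR, 0 passed (0%), and the smallest adjusted p was 0.505. Without adjustment 676 genes (5.20%) had a p under 0.05, with 328 (2.52%) higher in KO and 348 (2.68%) lower. DESeq2 called 1 gene, Rab17, and limma-voom with sample weights called 0. The 95% interval of the log2 fold change lay within 2-fold of no difference for 3938 genes (30.3%), and the median SE over all genes was 0.46. That share covers genes of all levels, and the lists below were not matched to it in abundance. Over all genes the log2 fold changes had a median of 0.02. With scaling to the spike-ins the median was 0.27, and 83.1% of the genes under an unadjusted p of 0.05 were then higher in KO, against 48.5% with TMM scaling, so directions below are relative to the median gene. On that scale the medians of the smooth muscle, endothelium, stromal, receptivity, insulin-like growth factor, cell cycle, immediate early, ribosome assembly and polarity lists turned from below to above 0, as that scaling raised the median of all genes.

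**Figure D2:**
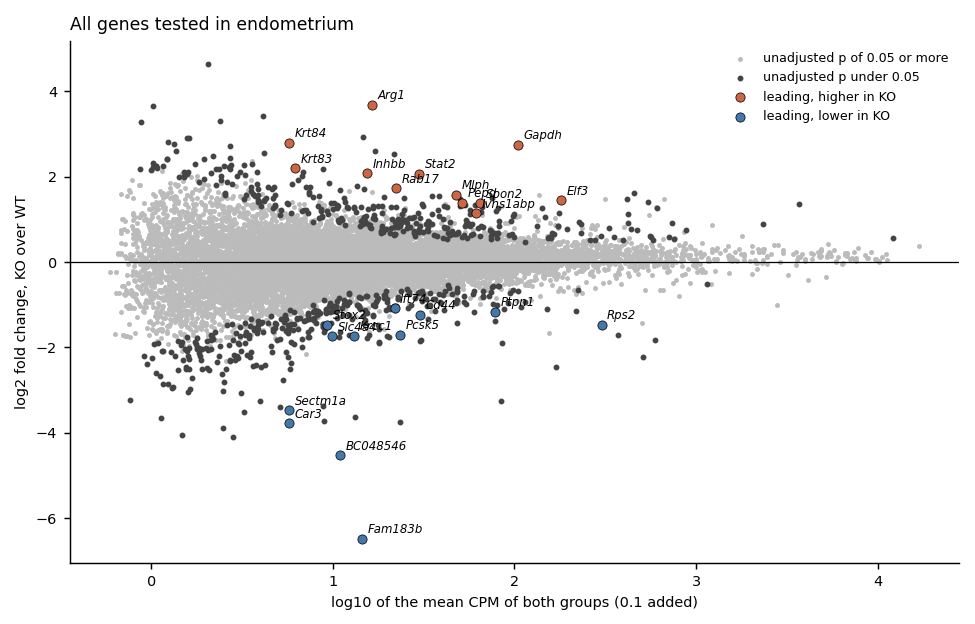
Each point is 1 of the 13004 genes tested in endometrium, placed by the log10 of its mean CPM (x) and its log2 fold change, KO over WT (y). Dark points are the 676 genes with an unadjusted p under 0.05, and coloured points are the 12 genes with the smallest p in each direction, named in the text. None of the points passed the adjusted threshold.

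The genes described next are the 12 higher and the 12 lower in KO with the smallest p among genes with a mean of at least 10 CPM in a genotype. They are the extremes of a comparison in which no gene passed, and their values are given as a description. In every alternative in which such a gene could be tested it kept its direction. The alternatives refit counts of the mice that the ranking used, so a kept direction adds no support. Car3 was not tested without WT 3, WT 5, WT 8, WT 10 or KO 9. Fam183b, BC048546 and Car3 were not tested within either row block, and Sectm1a not within rows A to C.

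Rab17, an epithelial small GTPase of vesicle traffic across polarised cells, stood first. It was at 5.56, 12.4 and 13.49 CPM (lowest, median, highest) in WT and at 13.45, 35.2 and 51.0 CPM in KO. All KO mice but KO 9 lay above every WT mouse, and KO 9 lay just under the highest. The log2 fold change was 1.73 ± 0.34 (SE) with an adjusted p of 0.505 in edgeR and of 0.0441 in DESeq2, and it was 1.63 among mice of rows A to C and 1.72 among those of D to F. In the 3 libraries of KO 13 Rab17 was at 62.5, 21.2 and 29.2 CPM before TMM scaling, which shows the spread between libraries of the same mouse. In whole uterus of the same mice the log2 fold change was 0.19 and in myometrium -0.07. Mlph, which links Rab27 vesicles to myosin, is the neighbour of Rab17 on chromosome 1 (92811662 to 92847719 and 92854710 to 92866238, NCBIM37). Mlph was at 6.38, 21.2 and 41.5 CPM in WT and 19.2, 44.5 and 223 CPM in KO, where KO 11 held the highest value. Its log2 fold change was 1.58 ± 0.46 (SE), and 0.96 without KO 11. It was 0.70 in rows A to C and 2.00 in rows D to F.

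Pepd, which encodes the dipeptidase that frees proline from collagen fragments, and Spon2, a secreted matrix protein of innate defence, had the next smallest p on the higher side. Pepd was at 13.9, 29.7 and 44.1 CPM in WT and at 28.8, 70.4 and 127 CPM in KO, which gave a log2 fold change of 1.39 ± 0.31 (SE, edgeR adjusted p = 0.598). Its gene body overlaps a small nucleolar RNA gene on the other strand, and the use of strand in counting is not stated. Spon2 was at 17.6, 40.8 and 48.0 CPM in WT and at 44.0, 96.9 and 148 CPM in KO, with a log2 fold change of 1.38 ± 0.31 (SE). For both genes 6 of 7 KO mice lay above all WT mice.

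Elf3, an epithelial transcription factor, was at 45.9, 92.8 and 140 CPM in WT and at 62.4, 169 and 643 CPM in KO (log2 fold change 1.45 ± 0.39, SE). KO 6 and KO 11 were highest, at 643 and 445 CPM, and KO 4 and KO 13 lay within the WT range. Ivns1abp, an actin-binding kelch protein, was at 16.6, 38.9 and 59.8 CPM in WT and at 31.8, 74.2 and 145 CPM in KO (1.15 ± 0.33). Stat2, a mediator of interferon signals, was at 0, 10.1 and 26.3 CPM in WT and 5.89, 33.6 and 130 CPM in KO (2.07 ± 0.59). KO 2 and KO 14 lay within the WT range, and the log2 fold change was 2.89 in rows A to C and 0.96 in rows D to F. Inhbb, the beta B subunit of activin and inhibin, was at 3.36, 5.10 and 13.49 CPM in WT and 1.92, 14.9 and 73.4 CPM in KO (2.08 ± 0.60). KO 9 and KO 14 lay under all WT mice and 4 KO mice above them. Krt83 and Krt84, hair-type keratins, were at or under 3 counts in all WT libraries and at medians of 8.52 and 7.42 CPM in KO.

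A further pair of genes on the higher side came from 2 KO mice each. Gapdh, the glycolytic enzyme, was at 15.2 to 45.9 CPM in WT and at 19.9 to 35.9 CPM in 5 KO mice, but at 677 and 450 CPM in KO 2 and KO 9. The same mice were the high ones in whole uterus (441 and 313 CPM) and in myometrium (671 and 703 CPM). Gapdh has many processed copies in the genome, and the treatment of reads with several matches is not stated, so its counts are uncertain. Arg1, the arginase that turns arginine into ornithine and urea, was at 0 to 5.40 CPM in WT and at 95.3 and 93.3 CPM in KO 6 and KO 11, with the other KO mice at 0 to 9.61 CPM. In whole uterus KO 6 and KO 11 were again highest, at 71.7 and 97.9 CPM, and in myometrium they were at 2.04 and 16.3 CPM.

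On the lower side, Ptpn1, a protein tyrosine phosphatase that acts on the insulin receptor, was at 44.1, 97.0 and 167 CPM in WT and at 32.7, 46.1 and 64.5 CPM in KO. The log2 fold change was -1.16 ± 0.29 (SE). It was -1.40 within rows A to C and -0.47 within rows D to F. Cd44, the hyaluronan receptor of the cell surface, was at 21.69, 43.1 and 63.5 CPM in WT and at 6.12, 20.1 and 21.58 CPM in KO (-1.23 ± 0.32). Every KO mouse lay below every WT mouse, with the highest KO value just under the lowest WT value, and the log2 fold change was -1.33 in rows A to C and -0.55 in rows D to F. Stox2, a winged-helix protein named for its relative STOX1, was at 9.70, 14.3 and 16.8 CPM in WT and at 1.96, 3.91 and 9.61 CPM in KO (-1.47 ± 0.39), also without overlap. Ift74, a subunit of the transport particle that builds cilia, was at 20.74, 29.7 and 40.2 CPM in WT and at 7.85, 14.4 and 20.79 CPM in KO (-1.08 ± 0.29), and 6 of 7 KO mice lay below all WT mice.

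Pcsk5, a convertase that activates secreted proproteins, was at 8.10, 36.1 and 87.4 CPM in WT and 5.01, 12.2 and 13.7 CPM in KO (log2 fold change -1.70 ± 0.44, SE). The KO values were close together and the WT values reached from within the KO range to far above it. Slc4a4, a sodium bicarbonate cotransporter, was at 5.10, 12.5 and 26.9 CPM in WT and 1.92, 3.92 and 7.42 CPM in KO (-1.74 ± 0.48). Krcc1, a lysine-rich coiled-coil protein, was at 8.31, 13.9 and 37.8 CPM in WT and 1.92, 5.01 and 9.81 CPM in KO (-1.72 ± 0.45). For both genes 5 of 7 KO mice lay below all WT mice. In rows D to F Slc4a4 was at -0.49. Rps2, a protein of the small ribosomal subunit with processed copies in the genome, was at 163, 257 and 998 CPM in WT and 117, 158 and 232 CPM in KO (-1.47 ± 0.37). WT 5 and WT 8 held the highest values, 998 and 851 CPM, and WT 8 was also highest in whole uterus (1360 CPM) and myometrium (1252 CPM). The log2 fold change of Rps2 was -1.83 in rows A to C, which hold both mice, and -0.15 in rows D to F.

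The remaining leading genes on the lower side were at the floor of detection in KO. Sectm1a, a secreted and transmembrane immune protein, gave 40 counts in WT and 5 in KO, with WT values from 0 to 30.3 CPM and KO values from 0 to 1.92 CPM. Fam183b, a gene of ciliated cells, gave 142 counts in WT, 138 of them in WT 8, and 1 in KO. BC048546, of the alpha-2-macroglobulin family, gave 105 counts in WT, 98 of them in WT 8, and 5 in KO. Without WT 8 the fitted log2 fold changes of Fam183b and BC048546 went from -6.49 to -1.99 and from -4.53 to -1.13. Car3, a carbonic anhydrase of muscle and fat, gave 52 counts in WT and 4 in KO, with 37.5 CPM in WT 3, 30.5 CPM in WT 8 and at most 3.84 CPM in any other mouse. These are also the WT mice with the highest adipocyte marker sums, 190 and 103 CPM against 0 to 6.73 CPM in the other WT mice, and the part of that tissue in the Car3 values was not tested.

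**Figure D3:**
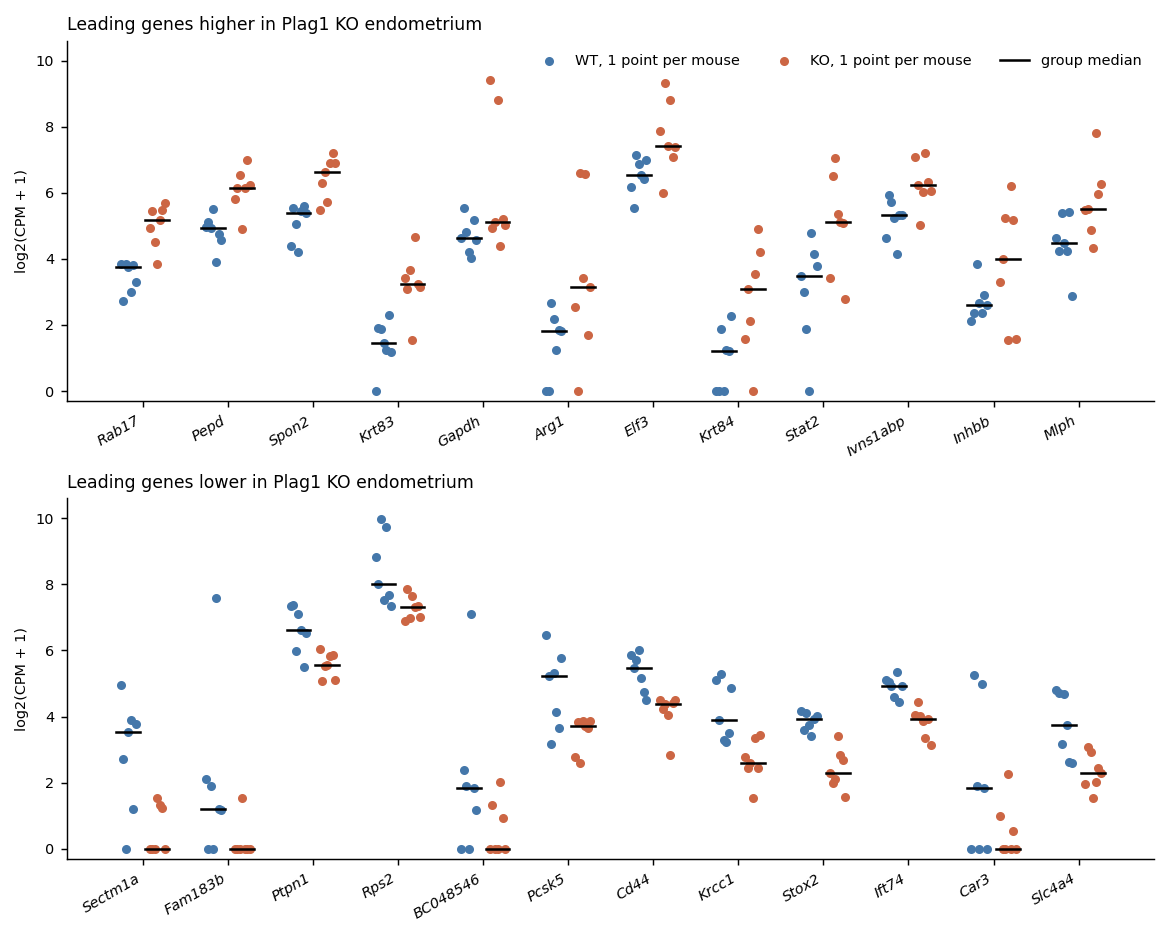
Expression of the 24 leading genes as log2(CPM + 1), with 1 point per mouse (WT blue, KO orange) and a bar at the group median. Cd44 and Stox2 are the genes without overlap, Gapdh and Arg1 are high in 2 KO mice each, and Fam183b and BC048546 are high in WT 8.

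The same genes were then examined in the other preparations of the same mice, which the ranking in endometrium did not use. They are not other animals, so what belongs to a mouse and what belongs to its genotype cannot be told apart. Of the 23 genes tested in whole uterus, 8 had an unadjusted p under 0.05 in the direction seen in endometrium and 0 in the other, where 5.64% of all genes tested were under that p. They were Pepd (log2 fold change 0.74), Spon2 (0.56), Gapdh (3.01), Arg1 (3.11), Elf3 (1.46), Sectm1a (-2.58), BC048546 and Pcsk5 (-1.88). In whole uterus BC048546 was at 0 CPM in every KO mouse, and WT 8 held 18.2 CPM against at most 3.02 CPM in the other WT mice. Of the 22 tested in myometrium, 4 were under that p in the same direction and 0 in the other (4.22% of all genes), namely Gapdh (3.51), Krt84 (2.02), Rps2 (-0.97) and Car3 (-2.96). In that tissue WT 8 held 1252 CPM of Rps2, against 171 to 336 CPM in the other WT mice. KO mice were at 151 to 286 CPM. Car3 was at 51.6 CPM in WT 8 and at most 16.4 CPM in any other mouse. Krt84 was at 0 to 3.41 CPM in WT and 0 to 8.22 CPM in KO. Gapdh was high in KO 2 and KO 9 alone, at 671 and 703 CPM, with 15.3 to 36.9 CPM in other KO mice. Cd44, Stox2, Ift74, Krcc1 and Slc4a4 had log2 fold changes between -0.35 and 0.46 in both other preparations. A piece of whole horn contains endometrium, so the whole uterus values share cell types with the scraped sample.

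**Figure D4:**
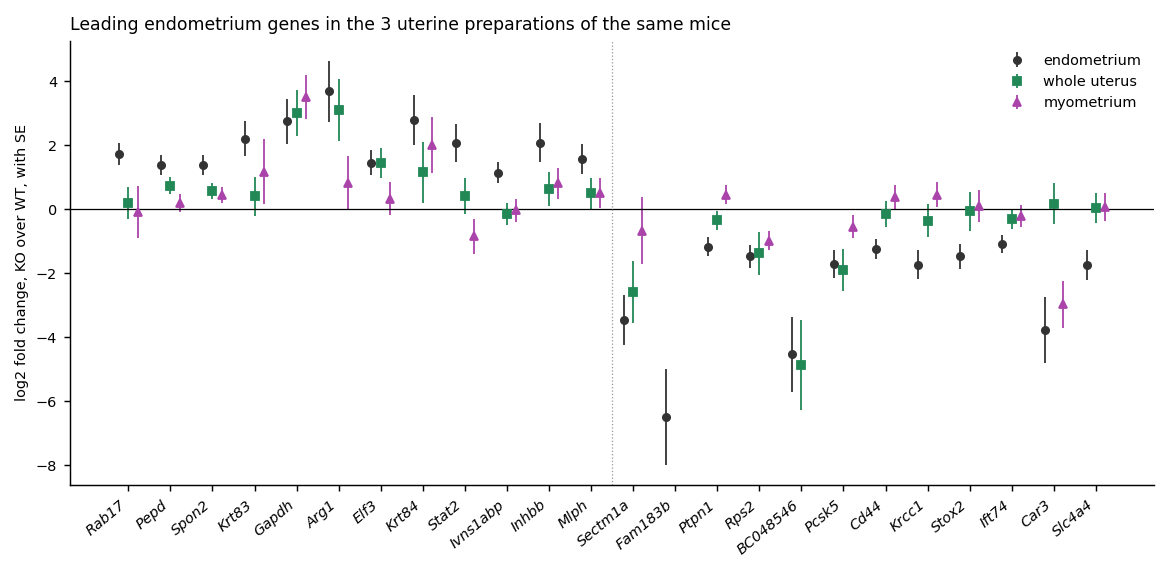
Log2 fold change, KO over WT, of the 24 leading endometrium genes in endometrium, whole uterus and myometrium, with bars of 1 SE. A dotted line parts genes higher in KO endometrium from those lower. Gapdh lies between 2.75 and 3.51 in the 3 preparations, Rab17 is near 0 outside endometrium, and Fam183b was not tested in the other 2.

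Groups without overlap were rare. In 15 of 13004 genes (0.115%) every KO mouse lay above (7 genes) or below (8 genes) every WT mouse. Besides Cd44 and Stox2, the lower genes included Ptger2, a receptor of prostaglandin E2, at 4.17 to 18.9 CPM in WT and 0 to 3.92 CPM in KO (log2 fold change -1.87 ± 0.56, SE). Maoa, a monoamine oxidase, was at 8.10 to 20.2 CPM in WT and 0 to 7.69 CPM in KO, and Dpp8, a dipeptidyl peptidase, at 11.48 to 20.2 and 1.67 to 8.91 CPM. On the higher side, Tm9sf2, a membrane protein of endosomes, was at 9.73 to 22.04 CPM in WT and 23.4 to 55.1 CPM in KO (1.01 ± 0.30). Spr, sepiapterin reductase, was at 45.9 to 72.3 CPM in WT and 76.5 to 104 CPM in KO (0.61 ± 0.22). Anp32a, a histone chaperone, was at 45.9 to 72.3 CPM in WT and 75.0 to 128 CPM in KO (0.53 ± 0.22). Hmox1, heme oxygenase, was at 0 to 11.1 CPM in WT and 11.53 to 17.8 CPM in KO (1.03 ± 0.39). Adjusted p over the 15 genes lay between 0.598 and 0.908 (edgeR). They were picked for the absence of overlap.

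Lists here and below, other than that taken from the study, were chosen with earlier results of these data known. Their counts are a description, not a test. Epithelial markers leaned to the higher side. Of 16 tested, 5 had an unadjusted p under 0.05 and were higher in KO (2.52% of all genes), 1 was lower (2.68% of all genes), and the median log2 fold change was 0.42 against 0.02 for all genes. Krt7 and Krt8, keratins of simple epithelium, were at 155, 453 and 988 CPM and at 160, 386 and 656 CPM in WT, and at 361, 942 and 1673 CPM and 183, 504 and 1077 CPM in KO. Their log2 fold changes were 0.92 ± 0.34 and 0.74 ± 0.32 (SE). Elf3 and Esrp2 (1.09 ± 0.52), a splicing regulator of epithelium, were also among the 5. The abundant members Krt18 (0.20 ± 0.28) and the tight junction gene Cldn3 (-0.31 ± 0.28) did not pass that p, and Prom1, an apical membrane protein, was lower (-0.97 ± 0.30). Without WT 3 and KO 13, the most muscle-rich mice, 3 members were higher and 1 lower, with a median of 0.32. With DESeq2 2 were higher and 1 lower, and in a fit of all 6 groups of the series 1 and 1. In rows A to C 1 was higher and 0 lower, and in rows D to F 0 were under that p. Medians in these 4 settings lay between 0.37 and 0.46. The score of epithelial minus muscle markers (4 genes each, log2 scale) averaged -0.34 ± 1.99 (SD, n = 7) in WT and 1.28 ± 2.15 (SD, n = 7) in KO. With it as a covariate 2 members were higher and 1 lower, with a median of 0.22. The epithelial genes of the score, Krt8, Krt18, Epcam and Cdh1, are members of this list, so that fit adjusts the list partly for itself and does not test it.

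Of 19 genes of polarity and junctions, 1 was higher (2.52% of all genes) and 1 lower (2.68%) at an unadjusted p under 0.05, with a median of -0.10. The lower was Inadl, a scaffold of the Crumbs complex (-1.25 ± 0.39, SE). The junction adhesion gene F11r had 0.33 ± 0.24. The Rab family of vesicle GTPases was listed because Rab17 led the comparison, so the count below includes the gene it was chosen on. Of 51 members, 3 had an unadjusted p under 0.05 and all 3 were higher in KO, a share of 5.88% against 5.20% of all genes, with a median of 0.15. Besides Rab17 these were Rab5c of early endosomes, at 70.6, 91.7 and 128 CPM in WT and 80.2, 131 and 413 CPM in KO (0.86 ± 0.30), and Rab9 of late endosomes, at 26.3, 32.4 and 47.2 CPM in WT and 40.4, 52.0 and 78.0 CPM in KO (0.65 ± 0.25). Rab11a, Rab14 and Rab25, the most abundant members, had 0.46 ± 0.40, 0.16 ± 0.24 and 0.49 ± 0.27.

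The genes that estrogen raises in uterine epithelium also leaned to the higher side, with wide spread. Of 17 listed 10 could be tested, 2 were higher at an unadjusted p under 0.05 (2.52% of all genes) and 0 lower, and the median was 0.95. Lcn2, a siderophore-binding secreted protein, was at 189, 1251 and 6607 CPM in WT and 1341, 3056 and 15320 CPM in KO (1.36 ± 0.60, SE). KO 2, KO 6 and KO 11 lay above all WT mice, with KO 6 highest. Sprr1a, a cornified envelope protein, was at 0 to 15.6 CPM in WT and 1.49 to 96.1 CPM in KO (2.60 ± 0.85), where KO 6 and KO 14 held the high values. Ltf, lactotransferrin, had 0.88 ± 0.59, C3, complement component 3, 0.70 ± 0.50, and Sprr2f 1.47 ± 0.73. Aqp5, a water channel of epithelium named here after its values were seen, was the 1 tested member on the other side, with means of 274 CPM in WT and 163 CPM in KO (-0.75 ± 0.46). Leaving out WT 8, WT 12 or KO 4 gave 3 members higher and 1 lower at that p. With the marker score as a covariate the median of the list was 0.53 with 1 member higher, and Ltf and Sprr2f were at -0.86 and -0.091. In rows A to C the median of the list was 1.42 and in rows D to F 0.21, and the value for Lcn2 in rows D to F was -0.12.

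Steroid receptors, their cofactors and direct targets lay on both sides of 0. Of 15 tested, 1 was higher (2.52% of all genes) and 1 lower (2.68%) at an unadjusted p under 0.05, the median was 0.02, and Esr1, the estrogen receptor, was at 47.1, 91.9 and 137 CPM in WT and 60.9, 102 and 263 CPM in KO (0.44 ± 0.31, SE). Fkbp5, a cochaperone induced by progesterone and glucocorticoid, was the higher member (2.10 ± 0.65). It was at 0 to 5.54 CPM in WT and 0 to 30.6 CPM in KO, and 5 of 7 KO mice lay above all WT mice. In myometrium of the same mice it was lower in KO (-1.25). Sox17, a progesterone target in epithelium and the lower member, was at 9.73, 23.3 and 64.8 CPM in WT and 7.63, 15.6 and 17.8 CPM in KO (-1.12 ± 0.38).

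Of 26 genes of receptivity and implantation, 1 had an unadjusted p under 0.05 (3.85% against 5.20% of all genes). This was Spp1, osteopontin, at 90.8, 197 and 384 CPM in WT and 161, 226 and 2705 CPM in KO (1.62 ± 0.56, SE), where KO 14 and KO 2 (1095 CPM) lay above the WT range and the other 5 KO mice within it. The transcription factor genes Msx1 and Hoxa10 had -0.30 ± 0.37 and -0.38 ± 0.25. The median of the list was -0.26, and 8 of its members had a 95% interval within 2-fold, where 30.3% of all genes did.

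Gland genes leaned to the lower side. Of 7 tested 3 were lower at an unadjusted p under 0.05 (2.68% of all genes), 0 higher, and the median was -1.01. Sox9, a transcription factor of gland cells, was at 45.7, 81.2 and 225 CPM in WT and 25.5, 30.7 and 151 CPM in KO (-1.01 ± 0.40, SE). KO 11 held the 151 CPM and the other KO mice were at 52.8 CPM or less. Foxa2, the master regulator of glands, was at 0, 5.19 and 20.8 CPM in WT and 0.45, 1.96 and 6.12 CPM in KO (-1.44 ± 0.69). Prss28, an implantation serine protease of glands, ranged from 18.9 to 3168 CPM in WT and from 5.01 to 774 CPM in KO (-1.83 ± 0.87), and its partner Prss29 had -1.01 ± 0.75. Klk1, tissue kallikrein, was the 1 member on the other side, at 0 to 2114 CPM in WT and 23.1 to 3245 CPM in KO (1.30 ± 1.03), and limma-voom gave 1 member higher and 3 lower at that p. Without WT 10, which held the 2114 CPM, Klk1 was at 4.00. Summed over the list, WT mice spanned 465.8 to 13386 CPM and KO mice 194 to 7441 CPM, so the spread within each genotype exceeded the difference between them. Leaving out WT 3, WT 7, WT 8, KO 6, KO 13 or KO 14 left 1 member of the list under an unadjusted p of 0.05 on the lower side, and without WT 3, WT 8 and KO 13 together the median was -0.44. With spike-in scaling 0 of the 7 were under that p.

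**Figure D5:**
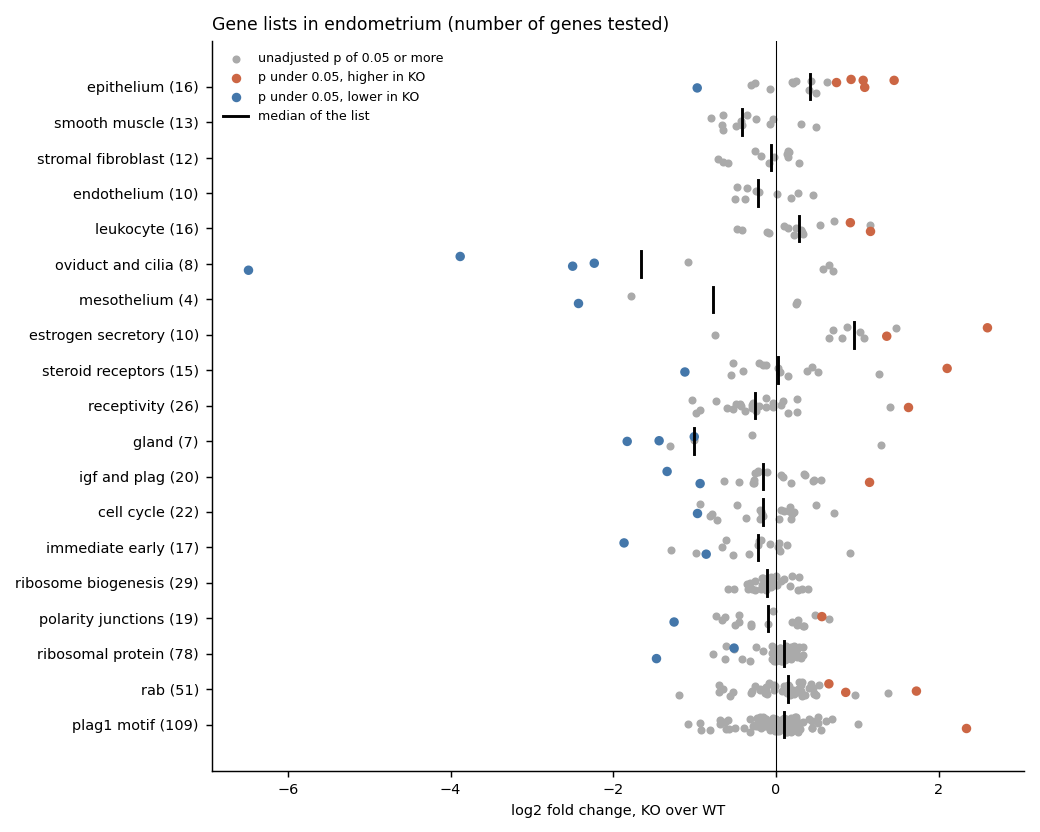
Log2 fold change, KO over WT, of the tested members of each list with at least 4 of them, with the number tested in brackets. Each point is a gene, coloured where its unadjusted p is under 0.05 (orange higher, blue lower in KO), and a bar marks the median. Epithelium and estrogen secretory lists lie to the right (0.42 and 0.95), gland and oviduct and cilia lists to the left (-1.01 and -1.66).

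The insulin-like growth factor genes are of interest because Igf2 is a known target of Plag1. Of 20 tested members of that list, which also holds imprinted growth genes and the Plag1 relatives, 1 was higher (2.52% of all genes) and 2 lower (2.68%) at an unadjusted p under 0.05. Without KO 6, without KO 14 and with the marker score as a covariate 0 were lower. Igfbp5, a binding protein of the matrix, was at 60.5, 108 and 184 CPM in WT and 60.6, 266 and 486 CPM in KO (1.15 ± 0.37, SE). Igf1, the ligand made by uterine stroma under estrogen, was at 60.9, 133 and 291 CPM in WT and 18.6, 57.4 and 175 CPM in KO (-0.93 ± 0.43), with 4 of 7 KO mice below all WT mice. Igfbp3 was at 8.10, 43.4 and 143 CPM in WT and 1.67, 15.4 and 57.9 CPM in KO (-1.34 ± 0.58). The most abundant binding proteins, Igfbp6 (-0.11 ± 0.38) and Igfbp4 (-0.26 ± 0.31), had means of 398 and 282 CPM in WT and 368 and 236 CPM in KO.

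Markers of the other cell types were resolved to different degrees. Of 12 stromal fibroblast markers 0 were under an unadjusted p of 0.05 (5.20% of all genes) and 8 had intervals within 2-fold (30.3% of all genes), among them Dcn (0.15 ± 0.26, SE) and Vim (-0.09 ± 0.28). Of 10 endothelial markers 0 were under that p and 3 had intervals within 2-fold, and Pecam1 had 0.02 ± 0.31. Of 16 leukocyte markers 2 were higher (2.52% of all genes) and 0 lower, 6 had intervals within 2-fold, and without WT 3 and KO 13 together 0 were higher. These were Csf1r, the receptor of macrophage growth factor, at 8.82, 13.5 and 31.9 CPM in WT and 14.9, 35.1 and 49.3 CPM in KO (0.91 ± 0.34), and Itgam, an integrin of myeloid cells (1.16 ± 0.49). Cd74, of antigen presentation, had 0.09 ± 0.38. Of 13 smooth muscle markers 0 were under that p and 0 had an interval within 2-fold. Acta2 spanned 65.3 to 4087 CPM in WT and 18.4 to 3471 CPM in KO, and Des had 0.31 ± 0.56 with all mice and -0.83 without KO 13. Without KO 13 the muscle list had 11 members lower at an unadjusted p under 0.05 and a median of -2.70 in place of -0.42. Within rows A to C 12 were lower, with a median of -3.50, and within rows D to F the median was 1.36, so the direction of this list depended on single mice. Of 4 mesothelial markers 1 was lower (Msln), against 2.68% of all genes, with a median of -0.77. The markers of that list summed to 84.5 CPM in WT 8 and 2.70 to 40.2 CPM in the other WT mice, and without WT 8 0 were lower and the median was -0.26. Of the erythrocyte and adipocyte lists a single gene each was tested.

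The oviduct and cilia list had the lowest median, -1.66 over 8 tested genes, with 4 lower (2.68% of all genes) and 0 higher at an unadjusted p under 0.05. The 4 were Fam183b, Tekt1 and Foxj1 of motile cilia and Ovgp1, the oviduct glycoprotein. Ovgp1 was at 5480 CPM in WT 8, at 8.10 to 114 CPM in the other WT mice and at 11.2 to 507 CPM in KO mice. Of the 8 genes 3 lay on the other side, among them Pax8, a transcription factor of the reproductive tract epithelium (0.65 ± 0.44, and -0.086 without KO 2), and Tppp3, a tubulin-binding protein (0.70 ± 0.51). Without WT 8 the median of the list was 0.90, and Ovgp1 and Foxj1 had log2 fold changes of 1.399 and 2.09. The list thus turned its direction with that mouse. A fit of all 6 groups of the series together had no term for mouse, so preparations of a mouse were treated as independent. In that fit edgeR called 7 endometrium genes, 2 higher (Pepd and Spon2) and 5 lower. The 5 were Fam183b, Pifo, Tctex1d4, Morn5 and Dcpp1. WT 8 held 121 of 128 WT counts of Pifo, 78 of 80 of Tctex1d4, 25 of 31 of Morn5 and 546 of 546 of Dcpp1, and the KO mice held 2, 0, 0 and 0. Pifo, Tctex1d4 and Morn5 are genes of cilia and sperm tails, and Dcpp1 encodes a secreted protein of the oviduct. Without the endometrium of WT 8 the same fit called 0 genes, with 986 at an unadjusted p under 0.05.

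Of 22 cell cycle genes 1 was lower at an unadjusted p under 0.05 (2.68% of all genes), Top2a, at 14.3, 53.6 and 192 CPM in WT and 11.7, 27.5 and 73.0 CPM in KO (-0.98 ± 0.46, SE), and Ccnd1 had 0.17 ± 0.42. Of 17 immediate early genes, which rise within minutes of handling, 2 were lower (2.68% of all genes), Btg2 (-0.86 ± 0.31) and Fos (-1.87 ± 0.72). Fos ranged from 1.28 to 113 CPM in WT and from 3.92 to 13.8 CPM in KO, so the WT mice lay on both sides of the KO range, and its value in rows D to F was 1.80. Of the immediate early list 4 members were lower and 0 higher in rows A to C, and 0 lower and 2 higher both in rows D to F and without WT 1 and WT 5.

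Ribosome genes were the best resolved of all. Ribosomal protein transcripts summed to 239732 to 412951 CPM in WT and 238166 to 443467 CPM in KO. Of 78 tested, 71 had a 95% interval within 2-fold against 30.3% of all genes, 2 were lower at an unadjusted p under 0.05 (Rps2, and Rplp1 at -0.52 ± 0.23, SE), 0 were higher, and the median was 0.10. The share of all genes that were lower at that p was 2.68%. Rpl35a, the most abundant, was at 8069, 11603 and 14310 CPM in WT and 8817, 10973 and 15550 CPM in KO (0.05 ± 0.20). Of 29 genes of ribosome assembly 0 were under that p and 21 had intervals within 2-fold, among them Nhp2 (0.00 ± 0.24) and Ncl (-0.06 ± 0.24). Among the other most abundant genes, Prap1, a secreted proline-rich acidic protein, was at 1641, 7580 and 54499 CPM in WT and 7824, 20217 and 30742 CPM in KO (0.37 ± 0.53). Ctla2a, a cathepsin inhibitor, was at 5647, 9481 and 13302 CPM in WT and 6425, 14063 and 26048 CPM in KO (0.55 ± 0.26).

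The last list holds 127 genes that the study named in embryos for a PLAG1 motif near their start. It was chosen on other samples than these, and 20 of its genes encode ribosomal proteins. The motif core is GAGGC or GGGGC. Sites of the 3 most abundant members, and of Alkbh1, the member with an unadjusted p under 0.05, show what was listed. They were read from the study's list and found at their places in NCBIM37 (mm9), and the capitals mark the core on either strand. All but the last lie in no annotated gene, between 292 and 1890 bases before the start of the gene they were listed for, and that of Alkbh1 lies 1519 bases before its start within the neighbour 1810035L17Rik, in none of its exons.
Rpl37a site, chr1:72757008-72757038, plus strand: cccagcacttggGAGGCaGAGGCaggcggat
Rps26 far site, chr10:128065452-128065482, minus strand: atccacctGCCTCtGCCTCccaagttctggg
Rps26 near site, chr10:128064420-128064450, minus strand: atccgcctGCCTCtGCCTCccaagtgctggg
Rpl38 far site, chr11:114528857-114528887, plus strand: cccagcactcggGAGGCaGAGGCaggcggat
Rpl38 near site, chr11:114529516-114529546, plus strand: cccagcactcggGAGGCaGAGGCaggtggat
Alkbh1 site, chr12:88786308-88786338, minus strand: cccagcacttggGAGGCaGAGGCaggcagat

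These sequences are near-copies of each other, with 2 cores that are 1 base apart. The study reported that most such motifs in mouse promoters lie within B1 elements, a family of repeated sequences. That pair (GAGGC, any base, GAGGC, or its reverse complement) was present in 126 of the 153 distinct sites of 31 bases, and in 0.0960% of 31-base windows cut from promoters. A core of either kind was in 149 sites and in 22.1% of the windows. The study found the sites by a scan for this motif, so their higher shares follow from that choice and test nothing. The windows came from 250 bases before to 50 after a gene start, and the sites shown lie further out. In endometrium 109 of the 127 genes were tested. At an unadjusted p under 0.05, 1 was higher in KO (2.52% of all genes) and 0 were lower (2.68%). That gene was Alkbh1, a DNA and RNA demethylase, with 1 count in WT and 14 in KO, so its WT level was under the floor. The median of the list was 0.10 and 74 members had a 95% interval within 2-fold, against 30.3% of all genes, which were not matched to the list in abundance. The 20 ribosomal protein genes of the list belong to a class in which 71 of 78 had such an interval. Rpl37a was at 6458, 10678 and 12063 CPM in WT and 5321, 10658 and 13654 CPM in KO (0.02 ± 0.21, SE), and Rps26 and Rpl38 had 0.09 ± 0.21 and 0.06 ± 0.21.

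The fuller PLAG1 consensus (GAGGC or GGGGC, 6 to 8 bases, then AGG or GGG and a G or T, both strands) was also searched in promoters of 300 bases, from 250 before to 50 after the annotated start of a gene in NCBIM37. It was in 8 of the 24 leading genes, in 27.5% of promoters of tested genes and in 21.5% of 22102 promoters. The genes were Mlph, Ivns1abp, Gapdh and Pepd of the higher and Cd44, Car3, Slc4a4 and Fam183b of the lower side. The promoters of Pepd and Cd44, the first of each side with a measured level in all mice, are shown with the match in capitals. A match describes the letters only.
Pepd promoter, chr7:35697148-35697447, plus strand: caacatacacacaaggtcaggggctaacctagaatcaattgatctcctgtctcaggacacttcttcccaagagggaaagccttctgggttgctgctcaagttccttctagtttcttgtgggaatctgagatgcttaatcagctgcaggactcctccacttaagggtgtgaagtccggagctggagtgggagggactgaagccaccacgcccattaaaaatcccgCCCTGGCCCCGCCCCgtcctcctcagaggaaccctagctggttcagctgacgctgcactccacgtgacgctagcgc
Cd44 promoter, chr2:102741773-102742072, minus strand: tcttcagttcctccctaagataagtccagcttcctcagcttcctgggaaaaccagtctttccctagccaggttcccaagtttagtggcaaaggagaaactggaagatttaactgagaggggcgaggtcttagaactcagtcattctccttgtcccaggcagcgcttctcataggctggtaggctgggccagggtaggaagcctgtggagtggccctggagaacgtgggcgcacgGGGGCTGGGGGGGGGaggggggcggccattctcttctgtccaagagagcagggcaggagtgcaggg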

How the data were processed

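RNA from scraped endometrium, whole horn and myometrium was profiled by STRT, a 5′-end RNA-seq method, in 46-plex from 10 ng RNA. The authors deposited raw counts per gene symbol, made from demultiplexed reads joined by molecular identifier, aligned with TopHat to mm9 and counted with Homer over UCSC genes and spike-ins. The submitters' notes also list HTSeq. Tool versions, strand and the handling of reads with several matches are not given in the sources used here. The table holds 24422 genes and 92 spike-ins in 45 columns. The study's description states 8 mice per genotype, and the labels gave 7 and 7. A figure legend of the study gives N = 7 for these samples. Nothing says more about the mice than their numbers, so the p-values measure the spread between these mice.

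Counts of the 3 libraries of KO 13 were summed. Genes that reached 1 CPM in 5 or more mice were fitted with edgeR 4.0.16 (R 4.3.3, TMM, quasi-likelihood F test, Benjamini-Hochberg over all genes, threshold 0.05), with no covariate. DESeq2 1.42.0 and limma 3.58.1 were alternatives. CPM values used TMM-scaled library sizes. The SE is the log2 fold change divided by the root of F. Single values per mouse were compared by exact permutation (scipy 1.17.1). Scripts were tested on simulated data. Named genes were the 12 with the smallest p in each direction at a mean of 10 CPM or more in a genotype, the members of the lists with an unadjusted p under 0.05, and the most abundant members. Genes without overlap and genes called by an alternative were also named, after their values were seen. Some members of the lists are counted but not reported here by name. Members and lists were chosen with earlier results of these data known. Gene positions are from GENCODE vM1 on NCBIM37, the same build as mm9. Floors cover counting error only, and the 95% intervals of the fits include the spread between mice.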

Additional observations from a re-analysis of the deposited data

Results flagged for a closer look

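Of 98 groups of 7 mice examined for a sample far from the others, 11 held one. About 5% would by chance if the groups were independent and unselected. They share the same mice and include leading genes ranked on these values, so no conclusion is drawn from the count. Values are log2(CPM + 1). In WT 8, Fam183b was at 7.59, with 0 to 2.13 in the other WT mice, and BC048546 at 7.10, with 0 to 2.37 in the others. The summed oviduct and cilia markers of WT 8 were at 12.6, with 6.54 to 7.78 in the other WT mice. In KO 13 the summed smooth muscle markers were at 14.6, with 9.17 to 11.0 in the other KO mice, and the summed adipocyte markers at 4.46, with 0 to 1.57 in the others. The score of epithelial minus muscle markers in KO 13 was -3.13 on the log2 scale, with 0.75 to 3.43 in the other KO mice.

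In KO 11, Cd44 was at 2.83, below the 4.03 to 4.50 of the other KO mice, and the summed steroid receptor list at 10.7, above their 9.46 to 9.65. In KO 6 the summed endothelial markers were at 6.43, below the 7.38 to 8.00 of the others. Fam183b at 1.55 and Car3 at 2.28 in KO 9 stood apart from the other KO mice, and both come from 1 or 2 counts.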

How the results depend on the processing

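No paired analysis was possible because KO and WT shared no mouse number. The count of genes at an adjusted p under 0.05 was 0 in endometrium by edgeR, 1 with DESeq2 and 7 with all 6 groups in 1 fit. It was 0 in the other alternatives run, including each of 14 mice left out in turn and 3 sets of mice left out after seeing the data. A further such alternative, the fit of 6 groups without the endometrium of WT 8, also gave 0. The 676 genes at an unadjusted p under 0.05 became 1043 with no gene filter, 371 at 10 CPM, which tested fewer genes, and 349 in rows D to F, with fewer mice. With 1 mouse left out they ranged from 560 to 787. Myometrium with no filter had 3 calls. In rows D to F, KO minus WT was -188834.3 for gene counts, 0.20 for the spike-in percentage and -571.5 for genes detected, and genes detected ranged from -95.5 to 277 with 1 mouse left out.

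Of 2726 values of 90 named genes under up to 31 alternatives, 36 changed direction and moved by more than 1 SE. The causes were not tested. In rows D to F log2 fold changes were 1.36 for Acta2, 0.24 for Vim, 1.16 for Ovgp1, -0.12 for Lcn2, 0.64 for Igfbp6, 1.80 for Fos, -0.21 for Rab11a, -0.29 for Pax8 and -0.15 for Rps26. In rows A to C they were -0.25 for Plagl2, -1.26 for Des, -1.14 for Tppp3, -0.049 for Esr1 and 0.20 for Ncl. With the marker score as covariate they were -0.86 for Ltf, -0.091 for Sprr2f and 0.53 for Igfbp6. DESeq2 gave 1.27 for Ovgp1 and 2.12 for Foxj1. The 6-group fit without the endometrium of WT 8 gave 1.38 and 2.09, and leaving out WT 3, WT 8 and KO 13 gave 1.596 and 2.17, with Klk1 at -0.039. Des was -0.51 without those mice, -0.41 without WT 3 and KO 13 and -0.46 with the row block as covariate. Acta2 was 0.23 with the libraries of KO 13 kept apart, and Ncl 0.27 with spike-in scaling. With 1 mouse left out, Acta2 ranged from -3.32 (without KO 13) to 0.19 (without WT 3), Des from -0.83 (without KO 13) to 0.73, Ovgp1 from -2.77 to 1.399 (without WT 8), Foxj1 from -3.47 to 2.09 (without WT 8), Igfbp6 from -0.45 (without KO 13) to 0.30 (without WT 3) Pax8 from -0.086 (without KO 2) to 0.85 (without WT 10) and Igfbp4 from -0.40 to 0.10 (without WT 12).

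A library of the lowest depth needs 11.7 CPM, before TMM scaling, for 3 counts, so differences in genes near 10 CPM rest on few counts.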
